A study of Homo sapiens with 16 samples.

Results

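Replication-dependent histone genes encode the H1, H2A, H2B, H3 and H4 proteins that package newly copied DNA. They were taken from a table of read counts over 2000 bp windows centred on annotated transcription start sites, as the windows on chromosomes 1 and 6 whose gene symbol is H2AC, H2BC, H3C or H4C followed by a number, or H1-1 to H1-6. This gave 66 genes with 87 distinct windows, out of 40113 gene symbols and 237274 distinct windows. The small cluster on chromosome 1 held 11 of the genes in 20 windows, and the large cluster on chromosome 6 held 55 genes in 67 windows. By family there were 6 H1, 16 H2A, 17 H2B, 13 H3 and 14 H4 genes.

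The cells were BJ-5ta, human fibroblasts made immortal by the telomerase gene hTERT. Wild-type cells were compared with ΔLEO1 cells, a single CRISPR/Cas9 knock-out clone (clone 13, targeted at exons 1 and 2) of LEO1, a subunit of the PAF1 complex that travels with elongating RNA polymerase II. Both genotypes were kept in 10% serum, in which they proliferate, or for 10 days in 0.1% serum, in which they enter quiescence. Each combination had 2 ChIP and 2 input libraries, lettered A and B. In ChIP-seq, an antibody pulls down fragments of cross-linked chromatin for sequencing, and input libraries skip that step. The labels name the antibody as H3, whereas the methods of the study name H3K9me2, histone H3 dimethylated at lysine 9, so the libraries are called ChIP here. Nothing in the labels says that A and B were separate cultures, so p-values measure the spread between libraries, which may be technical.

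Replication-dependent histone genes are switched on as cells enter S phase, and their transcripts end in a stem-loop bound by SLBP in place of a poly(A) tail. Their clusters meet the coactivator NPAT in nuclear histone locus bodies, and H2A and H2B genes often sit head to head with a shared promoter region. H3K9me2 is written mainly by the enzymes EHMT1 and EHMT2 over broad silent domains, and active promoters usually carry little of it.

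Promoters of genes from both ends of the range described further on are printed to show what such genes share and where they differ. Each runs 5′ to 3′ on the strand of the gene, from 250 bases before the start to 50 bases after it, from RefSeq on build GRCh38.p14. Capitals mark TATAAA (the TATA box), CCAAT (bound by NF-Y) and ATTTGCAT (the octamer, bound by POU2F1), each on either strand. H2BC21, at chr1:149886633-149886932 on the minus strand, and H4C8, at chr6:26285485-26285784 on the minus strand, had the lowest ChIP over input. H1-6, at chr6:26108086-26108385 on the minus strand, H4C7, at chr6:26246947-26247246 on the minus strand, and H2BC1, at chr6:25726527-25726826 on the plus strand, were among the highest.
H2BC21: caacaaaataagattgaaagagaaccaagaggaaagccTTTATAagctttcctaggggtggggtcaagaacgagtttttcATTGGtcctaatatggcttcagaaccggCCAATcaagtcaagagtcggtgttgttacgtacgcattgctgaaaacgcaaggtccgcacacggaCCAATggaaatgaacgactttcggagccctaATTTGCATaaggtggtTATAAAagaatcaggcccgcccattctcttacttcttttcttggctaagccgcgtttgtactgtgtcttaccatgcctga
H4C8: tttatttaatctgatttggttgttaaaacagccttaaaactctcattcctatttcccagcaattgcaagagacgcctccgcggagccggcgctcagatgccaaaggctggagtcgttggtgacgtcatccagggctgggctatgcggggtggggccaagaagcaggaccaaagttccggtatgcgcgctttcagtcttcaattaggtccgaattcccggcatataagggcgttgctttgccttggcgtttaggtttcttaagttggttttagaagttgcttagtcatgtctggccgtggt
H1-6: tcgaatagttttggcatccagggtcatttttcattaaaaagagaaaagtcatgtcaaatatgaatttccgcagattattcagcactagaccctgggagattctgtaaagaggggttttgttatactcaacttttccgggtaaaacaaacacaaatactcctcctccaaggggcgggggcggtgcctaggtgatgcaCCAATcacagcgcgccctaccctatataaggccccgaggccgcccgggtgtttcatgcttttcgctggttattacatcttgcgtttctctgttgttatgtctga
H4C7: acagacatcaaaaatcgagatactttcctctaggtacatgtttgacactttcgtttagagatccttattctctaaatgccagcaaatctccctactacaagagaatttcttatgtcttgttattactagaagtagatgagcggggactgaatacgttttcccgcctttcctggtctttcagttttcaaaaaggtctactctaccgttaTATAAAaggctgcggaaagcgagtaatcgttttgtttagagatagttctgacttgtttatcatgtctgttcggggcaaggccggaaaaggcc
H2BC1: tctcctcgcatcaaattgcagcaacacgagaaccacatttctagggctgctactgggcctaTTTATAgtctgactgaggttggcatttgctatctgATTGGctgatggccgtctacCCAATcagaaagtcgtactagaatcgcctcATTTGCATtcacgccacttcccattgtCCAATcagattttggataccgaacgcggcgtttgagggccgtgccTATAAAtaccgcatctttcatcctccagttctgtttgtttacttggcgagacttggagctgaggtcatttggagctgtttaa
H2BC21 and H2BC1 both held all 3 motifs, and they stood at opposite ends of the range. The H4C8 sequence held none of them.

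RefSeq promoters were found for 61 of the 66 genes. TATAAA was present in 41 of them (67.2%, against 11.5% of all 35116 promoters of this length), CCAAT in 52 (85.2%, against 34.6%) and ATTTGCAT in 25 (against 1.77% of all promoters). In the 36 promoters with TATAAA on the sense strand it lay at a median of -31 bases from the start. The octamer was found in 14 of 17 H2B and 11 of 15 H2A promoters, and in 0 of 6 H1, 0 of 11 H3 and 0 of 12 H4 promoters. CCAAT was found in every H1, H2A, H2B and H3 promoter, but in 3 of 12 H4 promoters. Promoters of a head-to-head pair overlap, so these counts are not independent. The median promoter of the group held 43.0% G and C and 12 CpG dinucleotides, against 58.7% and 14 for all promoters. Relative to the number expected from its C and G content, the median CpG count was higher in the group, at 0.774 against 0.579.

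The 7 ChIP libraries used held between 1895572 and 3266061 reads over distinct windows, of which between 475 and 793 lay over the histone windows. The 8 inputs held between 2844483 and 7947289 reads, with between 1315 and 3231 over the histone windows. ChIP library A of ΔLEO1 in 10% serum held 50 reads in all and 0 over the histone genes. It was left out, so that this group has 1 ChIP library. The start windows of LEO1 held between 6 and 21 ChIP reads in each library used. In the inputs, the window chr15:51970778-51972778 held 28, 53, 28 and 26 reads in wild type and 16, 24, 20 and 24 in ΔLEO1, not scaled for depth. Reads over the whole window do not check the genotype labels.

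Overlap and duplication limit what can be measured in these clusters. Of the 66 genes, 45 had a window overlapping that of another member. In 11 head-to-head pairs of an H2A and an H2B gene the starts lay 215 to 293 bp apart, so that the windows shared between 1707 and 1785 bp. Partners therefore share reads, but not always most of their ChIP reads, as H2BC12 and H2AC12 show further on. On chromosome 1, H4C14, H3C14, H3C15 and H4C15, which lie in a duplicated stretch with near-identical copies, had 0 reads in each of the 15 libraries, input included. Their neighbours H2AC18 and H2AC19 had 0 and 3 ChIP reads over the 7 libraries and 40 and 41 input reads. How reads with several matches were treated is not given in the sources used here, and none of these 6 genes passed the filter on low counts. The filter left 76 windows of the other 60 genes for the comparison of ChIP with input.

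The first comparison asked how much ChIP signal histone genes carry. Most of them carried less than the typical start site. Of the 76 windows tested, 47 were lower in ChIP than in input (61.8%, where 38.7% of all 206148 windows tested were lower) and 8 were higher (10.5%, where 36.4% of all windows were higher), by the quasi-likelihood test of edgeR (p-values adjusted by Benjamini-Hochberg). The median log2 ratio of ChIP to input was -0.99 over the histone windows and -0.04 over all windows. With 1 window per gene, 36 of 60 genes were lower, 8 were higher and 16 did not pass. A ratio of 1 stands for the middle of all windows after TMM scaling (trimmed mean of M-values, which sets the libraries' typical window equal), not for absence of the mark. When libraries were scaled by their reads over the table of peak regions instead, 76 of 76 histone windows and 202133 of all windows were lower, so directions hold relative to other start sites only.

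**Figure D1:**
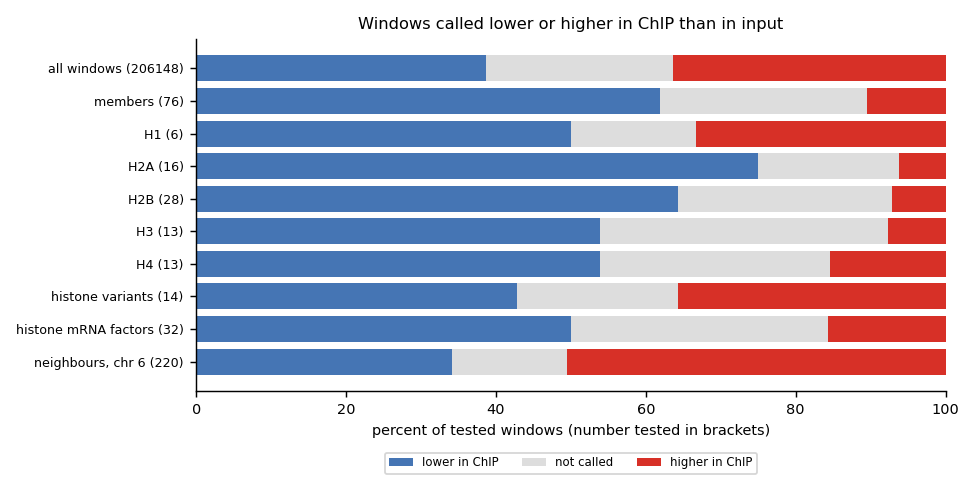
Horizontal bars give the percent of tested windows called lower in ChIP than in input, not called, and called higher (edgeR, adjusted p under 0.05), with the number tested in brackets. Lower windows make up 61.8% of the histone windows against 38.7% of all windows, and 75.0% of the H2A windows.

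Input levels over the histone windows were also above those elsewhere. The median was 5.49 CPM (reads relative to the TMM-scaled size of the library) over the 76 histone windows and 4.61 over all windows tested. Its part in the ratios was not tested. In single ChIP libraries, between 13 and 24 of the 60 genes had a ratio above 1 to the input of the same group and letter (21.7% to 40.0%), against 47.0% to 51.9% of all windows. No library had a ratio above 1 at 28 of the genes. All 7 libraries were above 1 at H1-6, H2AC1, H2BC1, H2BC6, H3C6, H4C6, H4C7 and H4C13, of which H4C13 was not called.

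**Figure D2:**
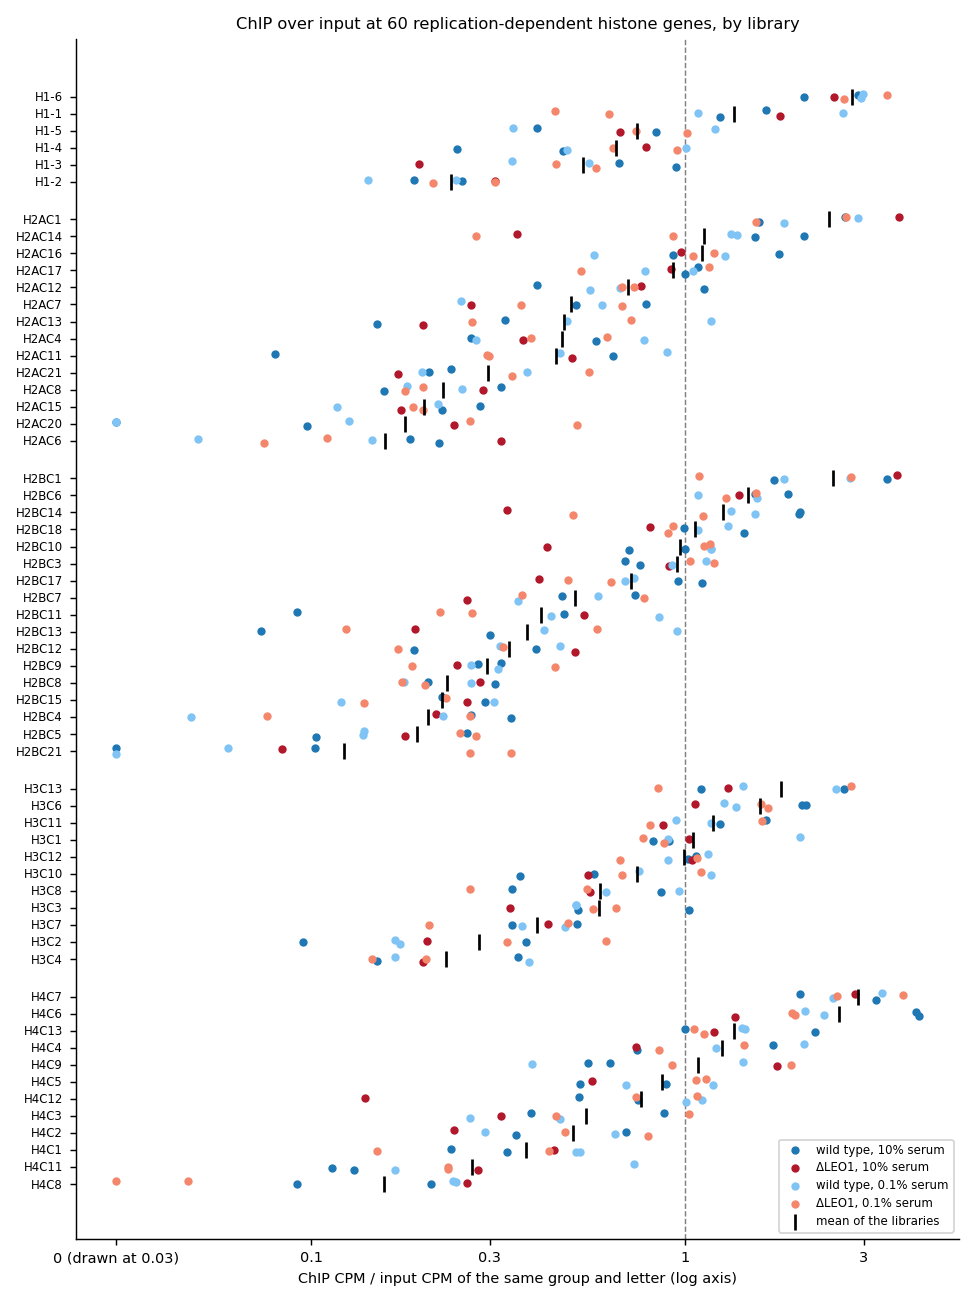
Each line is a histone gene that passed the filter and each point 1 of the 7 ChIP libraries, as ChIP CPM over the input CPM of the same group and letter on a log axis, coloured by genotype and serum, with a bar at the mean. Values of 0 are drawn at the left edge. H1-6 and H4C7 lie at or above 2.02 in every library, and H2BC21 at or below 0.342.

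The lowest values were at core histone genes. H2BC21, an H2B gene of the chromosome 1 cluster, had 0 and 2 ChIP reads in wild type in 10% serum, 1 in ΔLEO1 in 10% serum, 1 and 0 in wild type in 0.1% serum and 5 and 4 in ΔLEO1 in 0.1% serum, against 288 input reads in all. The pooled ratio was 0.131 (exact 95% interval 0.0691 to 0.228, counting error only), and the fitted log2 ratio was -2.56 ± 0.28 (SE, edgeR adjusted p = 1.67e-16). Its head-to-head partner H2AC20, which shares most of these reads, gave -2.16 ± 0.26. The libraries of ΔLEO1 in 0.1% serum were highest at both genes, but neither window passed the filter for a comparison within ChIP.

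H4C8, at the end of the densest block of chromosome 6, had 1 and 3 ChIP reads in wild type in 10% serum, 3 in ΔLEO1 in 10% serum, 4 and 3 in wild type in 0.1% serum and 1 and 0 in ΔLEO1 in 0.1% serum, against 299 input reads. Its log2 ratio was -2.29 ± 0.25 (edgeR adjusted p = 2.12e-16). H2AC6 had between 1 and 4 ChIP reads per library against 301 input reads, with ratios between 0.0498 and 0.321 and a log2 ratio of -2.19 ± 0.24. These counts are too low to compare groups at either gene.

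The highest values were at germline genes and at H4C7 and H4C6. H1-6, the testis linker histone, had ratios of 2.07 and 2.89 in wild type in 10% serum, 2.51 in ΔLEO1 in 10% serum, 2.95 and 3.00 in wild type in 0.1% serum and 3.46 and 2.67 in ΔLEO1 in 0.1% serum. Every library lay above the typical start site and the groups overlapped between genotypes. The log2 ratio was 1.40 ± 0.15 (edgeR adjusted p = 4.67e-16), from 212 ChIP and 217 input reads.

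The other testis genes, H2AC1 and H2BC1, form a head-to-head pair apart from the rest of the cluster. Their log2 ratios were 1.11 ± 0.15 and 1.11 ± 0.16 (edgeR adjusted p = 3.79e-11 and 1.23e-10), mostly from the same reads. Ratios in the 7 libraries ranged from 1.55 to 3.73 at H2AC1 and from 1.09 to 3.70 at H2BC1. Summed over the 3 germline genes the ratio lay between 1.79 and 3.24 in single libraries, and summed over all other members between 0.541 and 0.687, so the libraries did not overlap. Among the 57 tested genes other than these, 36 were lower and 5 higher, with a median log2 ratio of -0.94.

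H4C7, which encodes a divergent H4 protein, had ratios of 2.02 and 3.24 in wild type in 10% serum, 2.85 in ΔLEO1 in 10% serum, 3.36 and 2.48 in wild type in 0.1% serum and 3.81 and 2.55 in ΔLEO1 in 0.1% serum. Its log2 ratio was 1.40 ± 0.14 (edgeR adjusted p = 3.33e-18). H4C6, in the same block, gave 1.09 ± 0.16 (adjusted p = 5.18e-10), with 4.23 and 4.15 in wild type in 10% serum and between 1.36 and 2.35 in the other libraries. H4C8 lies in that block too, at the opposite end of the range of values.

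By family, the H1 genes for linker histones went both ways. H1-6 and H1-1 were higher, whereas H1-2, H1-3 and H1-4, common somatic linker histones, were lower, with log2 ratios of -1.74 ± 0.23, -1.05 ± 0.24 and -0.73 ± 0.21. H1-5 was at -0.36 ± 0.19 and did not pass. H1-2 had the highest input level of its family and the lowest ratio, between 0.142 and 0.310 in the 7 libraries. The value of 0.40 ± 0.17 at H1-1 (edgeR adjusted p = 2.44e-02) was the weakest of the higher calls. Its ratios were 1.24, 1.64, 1.79, 1.08 and 2.65 in the libraries of wild type in 10% serum, ΔLEO1 in 10% serum and wild type in 0.1% serum, and 0.626 and 0.449 in ΔLEO1 in 0.1% serum. The call was lost without any 1 of 7 libraries (ChIP of wild type in 10% serum A or B, of ΔLEO1 in 10% serum B, of wild type in 0.1% serum B or of ΔLEO1 in 0.1% serum A, or input B of either genotype in 0.1% serum), with log2 ratios from 0.10 to 0.36. It was also lost with DESeq2 (0.27), without TMM (0.28) and with sums per gene symbol (0.16). The same held with the library of few reads included (0.36) and without ΔLEO1 in 10% serum, ChIP and input (0.19).

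H2A and H2B, whose proteins form the outer dimers of the nucleosome, had the lowest family medians. Of 14 H2A genes tested, 10 were lower and H2AC1 was higher, with a median log2 ratio of -1.08. Of 17 H2B genes, 11 were lower and H2BC1 and H2BC6 were higher, with a median of -1.22. Partners of a pair share reads, so these counts are not independent. The pair H2AC15 and H2BC15 gave -2.06 ± 0.24 and -1.88 ± 0.23, and the pair H2AC8 and H2BC8 gave -1.82 ± 0.23 and -1.80 ± 0.23. H2BC5 and H2BC4 were at -2.01 ± 0.24 and -1.99 ± 0.23. H2BC4 is the head-to-head partner of H2AC6 and shares its reads. The other lower genes were H2AC21, H2AC13, H2AC11, H2AC4, H2AC7 and H2AC12, from -1.59 to -0.53, and H2BC9, H2BC13, H2BC12, H2BC11, H2BC7 and H2BC17, from -1.60 to -0.60. H2AC14, H2AC16, H2AC17, H2BC3, H2BC10, H2BC14 and H2BC18 lay between -0.27 and 0.09 and did not pass. The call at H2BC17 was lost without ΔLEO1 in 10% serum, ChIP and input (-0.38).

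H3 and H4, whose proteins form the central tetramer, had family medians nearer to 0. Of 11 H3 genes tested, 6 were lower and H3C6 was higher, with a median log2 ratio of -0.46. H3C4 was lowest at -1.96 ± 0.24, with ratios between 0.145 and 0.382 in the 7 libraries. H3C2 and H3C7 followed at -1.66 ± 0.25 and -1.22 ± 0.22, and H3C8, H3C3 and H3C10 lay from -0.79 to -0.46. Of 12 H4 genes, 6 were lower and 2 higher, with a median of -0.52. After H4C8 came H4C11 and H4C1 at -1.59 ± 0.28 and -1.24 ± 0.21, and then H4C2, H4C3 and H4C12 from -1.01 to -0.75. H3C13 at 0.52 ± 0.25 (edgeR adjusted p = 5.51e-02) and H4C13 at 0.36 ± 0.17 were on the high side without passing. Single libraries decided the weakest calls. H3C10 was lost without any 1 of 6 libraries (-0.45 to -0.42), and H4C12, where ΔLEO1 in 10% serum held 1 read, was lost without that ChIP library (-0.29).

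Summed over all windows of a family, the ratio averaged 0.533 ± 0.048 for H2A, 0.549 ± 0.058 for H2B, 0.790 ± 0.099 for H3, 0.945 ± 0.108 for H4 and 0.969 ± 0.091 for H1 (SD, n = 7 libraries). H2A and H2B differed by less than their spread, and so did H4 and H1. Over all windows, the H2A and H2B values lay below that of H3 in each of the 7 libraries. In windows that do not overlap the means were closer, at 0.614 ± 0.055 for H2A, 0.616 ± 0.065 for H2B and 0.720 ± 0.093 for H3, and in ChIP library A of wild type in 10% serum H2A was above H3 (0.725 and 0.677).

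**Figure D3:**
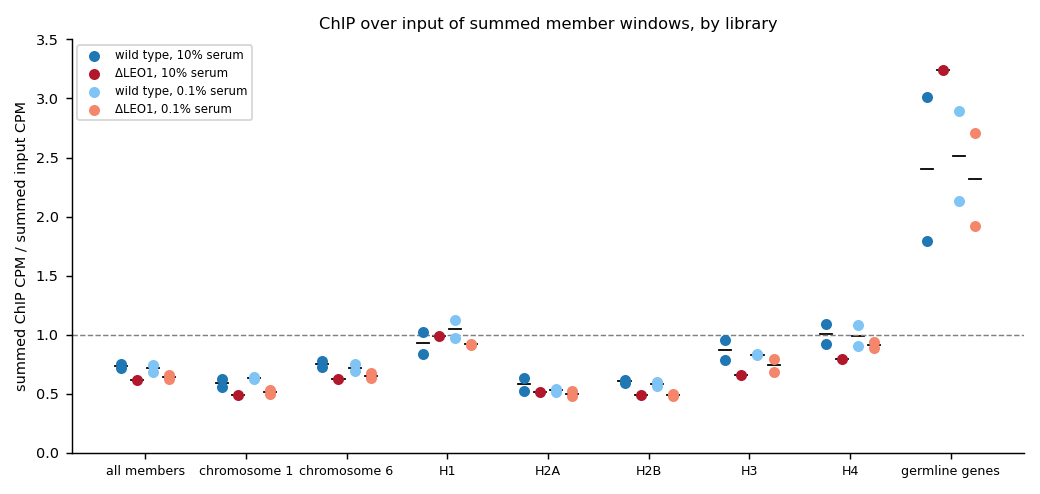
Points are single libraries and short bars are group means of summed ChIP CPM over summed input CPM, for all members, each cluster, each family and the germline genes, coloured by genotype and serum. The germline genes lie between 1.79 and 3.24, and all members together between 0.615 and 0.754.

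H3C6 and H2BC6 each had 2 annotated starts whose windows went opposite ways. At H3C6, the window chr6:26224135-26226135 was higher in ChIP, at a log2 ratio of 0.56 ± 0.16 with 146 ChIP and 271 input reads. The other window, chr6:26223199-26225199, overlaps it and was lower, at -1.11 ± 0.23 with 38 ChIP and 252 input reads. At H2BC6, the window chr6:26182761-26184761 was at 0.48 ± 0.16 and the window chr6:26171059-26173059 at -1.62 ± 0.26. Summed over both starts, H3C6 and H2BC6 were at -0.28 and -0.43, so the higher calls at these genes belong to 1 start each. Both higher calls were also lost with DESeq2 (0.44 and 0.36). Another step within a short distance lay at the pair H2BC12 and H2AC12, whose windows share 1749 bp. They held 29 and 60 ChIP reads and 269 and 261 input reads, with log2 ratios of -1.42 ± 0.23 and -0.53 ± 0.21.

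Along the chromosomes the genes were grouped into blocks wherever more than 200 kb lay between members. On chromosome 1, 3 of the 5 genes tested were lower, namely H2BC21, H2AC20 and H2AC21, while H2BC18 and H3C13 at the other end were at 0.07 ± 0.24 and 0.52 ± 0.25. On chromosome 6 the germline pair H2AC1 and H2BC1 stands alone, and both were higher. In the next block of 32 genes, which holds H1-6, H4C7 and H4C8, 21 were lower and 6 higher, with a median log2 ratio of -1.01. In the block of 5 genes around H2BC11, 4 were lower and 0 higher. In the last block of 16 genes, 8 were lower and 0 higher, with a median of -0.41. Beside the 38.7% lower and 36.4% higher over all windows, the lower share was 65.6% in the block of 32 genes, and 8 of 16 in the last block is nearer to that background.

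**Figure D4:**
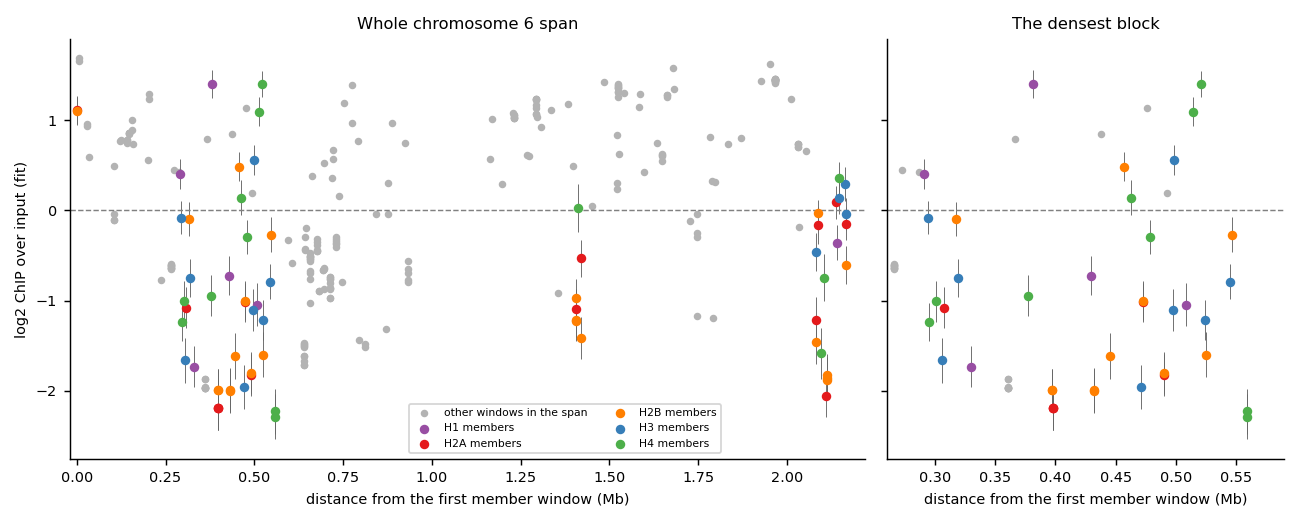
Fitted log2 ChIP over input (vertical axis, bars are SE of members) against distance in Mb from the first member window on chromosome 6, for members by family and for other windows of the span in grey, with the densest block at the right. Members as low as -2.29 (H4C8) lie in the same block as H1-6 and H4C7 at 1.40.

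Other windows between the histone genes were higher on the whole. Within the 2.17 Mb span on chromosome 6, 220 windows that overlap no member were tested. Of these, 111 were higher in ChIP (50.5%) and 75 lower (34.1%), with a median log2 ratio of 0.43. Genes of the SLC17 family of anion transporters had 17 of 20 windows higher and 0 lower. Butyrophilin genes, which regulate immune cells, had 43 of 64 windows lower and 6 higher. These neighbours were grouped by name after their values were seen, and windows of 1 gene overlap.

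Peak regions called by the authors were rare in the clusters. Of 16092 regions, 0 lay in the chromosome 1 cluster and 12 in the chromosome 6 span. Only the window of H2AC16 was overlapped by one (1.15% of the 87 windows, against 1.62% of all distinct windows). This region, chr6:27864145-27864784, lies -865 bp from the start of H2AC16 by the annotation in the file. It held 22 and 19 ChIP reads in wild type in 10% serum, 10 in ΔLEO1 in 10% serum, 19 and 7 in wild type in 0.1% serum and 24 and 13 in ΔLEO1 in 0.1% serum, against 86 input reads, a pooled ratio of 3.86. The start window of H2AC16 as a whole was at a log2 ratio of 0.09 ± 0.18. Another region, chr6:27859616-27860292, lay 4025 bp from that window and had a ratio of 5.22.

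Other histone genes, mostly variants and called variant genes here, and genes that act on histone genes and transcripts, served for comparison. Of 14 variant genes tested, 6 were lower (42.9%) and 5 higher (35.7%), with a median log2 ratio of 0.12. Over all windows the shares were 38.7% and 36.4%. Each listed gene is represented by its window of highest mean count over ChIP and input libraries. That choice can favour a start high in ChIP, whereas the shares over all windows take every start. H2AX, the variant phosphorylated at DNA breaks, H1-10, H2AZ2, H2AZ1 and H3-3A were among the lower, from -2.68 to -1.72. MACROH2A2, H3-5, H2AP, H2AJ and MACROH2A1 were higher, from 1.06 to 0.40. Of 32 pathway genes, 16 were lower and 5 higher (15.6%, against 36.4% of all windows), with a median of -0.48. NPAT was the lowest at -3.07, with 6 ChIP and 311 input reads. HINFP, which activates H4 genes, was at -2.55 and SLBP at -1.70, and POU2AF1, a B-cell coactivator, was the highest at 1.54. Within ChIP, 0 of the 8 variant and 0 of the 18 pathway genes tested were called for genotype in 0.1% serum or for serum in wild type, where 0.392% and 0.25% of all windows were.

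The next comparison asked whether loss of LEO1 changes the ChIP signal at histone genes. No histone gene passed the test in either serum. Within ChIP, 36 histone windows of 35 genes passed the filter. These included all 8 genes above a ratio of 1 in every library but 4 of the 28 at or below it in every library, so the lowest genes were not compared. In 0.1% serum 0 of 36 windows were called between ΔLEO1 and wild type, where 0.392% of all 140885 windows were. At an unadjusted p under 0.05 there were 2 by edgeR and 0 by DESeq2, and DESeq2 called 0 of all windows. The median log2 fold change of the histone windows was -0.17, against -0.005 for all windows, and 25 of 35 genes were below 0 (71.4%, against 50.5% of all windows). The median was -0.0631 without ChIP library A of ΔLEO1 in 0.1% serum and -0.0935 with only the libraries compared. Standard errors of single genes ran from 0.24 to 0.57, with a median of 0.34. A call among all windows needs a difference of several standard errors, so moderate differences could go uncalled at this depth.

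H1-1 and H2AC11 were the genes with an unadjusted p under 0.05 in 0.1% serum. At H1-1, ChIP CPM was 6.89 and 9.82 in wild type and 5.42 and 2.36 in ΔLEO1, a log2 fold change of -0.84 ± 0.33 (edgeR adjusted p = 0.278). At H2AC11 it was 4.72 and 2.68 in wild type and 1.27 and 1.42 in ΔLEO1, a log2 fold change of -1.08 ± 0.53 (edgeR adjusted p = 0.435). At both genes the ΔLEO1 libraries lay below the wild-type libraries, but the genes were picked by their p-values, so this order adds no support. H2AC11 passed the filter only through wild-type ChIP library A in 0.1% serum, in which it is high, and was not tested without that library. H2BC13 was next at -0.83 ± 0.57, but it passed the filter through wild-type ChIP library B in 0.1% serum, in which it is high. The values at H2AC11 and H2BC13 give no support for a change. At the other end H4C3, H4C9 and H2AC16 were at 0.55 ± 0.51, 0.51 ± 0.34 and 0.37 ± 0.33, and H4C9 turned to -0.14 without wild-type ChIP library A. The germline genes H1-6, H2AC1 and H2BC1 were at 0.21 ± 0.24, -0.08 ± 0.27 and -0.23 ± 0.28.

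In 10% serum, with 1 ΔLEO1 library that is assumed to vary like the other groups, 0 of 36 windows were called, where 0.0256% of all windows were. At an unadjusted p under 0.05 there were 4 by edgeR and 2 by DESeq2. The median log2 fold change was -0.19, against -0.02 for all windows. H4C6 had 18.7 and 18.9 CPM in wild type and 7.74 in ΔLEO1, at -1.20 ± 0.36 (edgeR adjusted p = 0.183). H2BC14 had 8.22 and 9.47 CPM in wild type and 2.21 in ΔLEO1, at -1.68 ± 0.53 (edgeR adjusted p = 0.241), and H2AC14, which shares its reads, was at -1.38 ± 0.55. H4C9 had 2.74 and 3.41 CPM in wild type and 8.85 in ΔLEO1, at 1.30 ± 0.46 (edgeR adjusted p = 0.350). The ΔLEO1 library lay outside the wild-type range at each of these genes. They were picked for their fold changes, so this adds no support. H4C12 was at -1.35 ± 0.77, H1-1 at 0.48 ± 0.38 and H2AC1 at 0.44 ± 0.35.

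**Figure D5:**
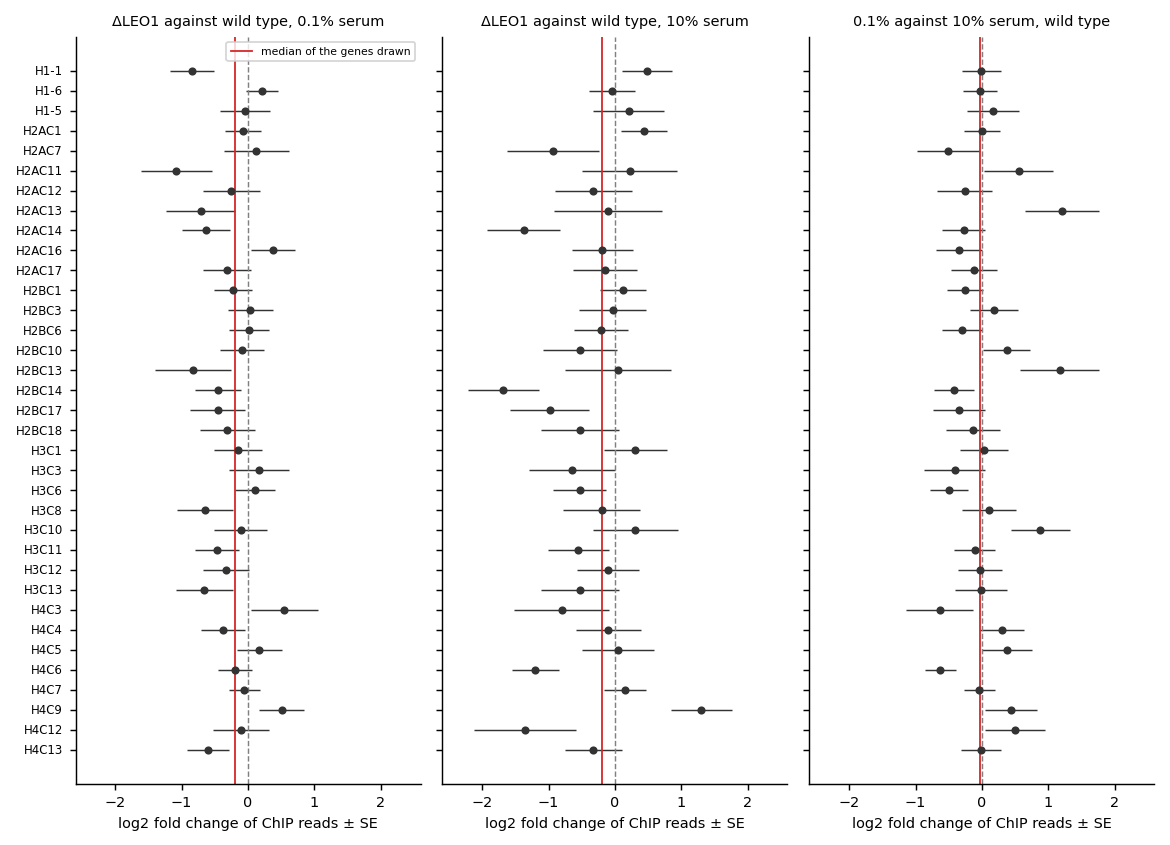
Log2 fold changes of ChIP reads with SE at the 35 histone genes with enough reads, for ΔLEO1 against wild type in each serum and for 0.1% against 10% serum in wild type, with the median of the genes in red. No gene passed an adjusted p of 0.05. The medians are -0.20 for genotype in 0.1% serum, -0.19 for genotype in 10% serum and -0.03 for serum.

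The ratio of ChIP to input summed over all members was 0.714 and 0.754 in wild type in 10% serum, 0.615 in ΔLEO1 in 10% serum, 0.683 and 0.745 in wild type in 0.1% serum and 0.626 and 0.659 in ΔLEO1 in 0.1% serum. The 3 ΔLEO1 libraries lay below the 4 wild-type libraries. In windows chosen so that none overlapped, ΔLEO1 ranged from 0.718 to 0.821 and wild type from 0.784 to 0.884, and the ranges overlapped. The H2A ranges overlapped over all windows but not in windows without overlap (up to 0.5969 in ΔLEO1 and from 0.5975 in wild type, which nearly touch). The H2B family kept apart in both sets of windows, with 0.479 to 0.501 in ΔLEO1 and 0.568 to 0.619 in wild type over all windows. In the H1, H3 and H4 families and the germline genes the ranges overlapped in both. How often sums over other sets of windows separate by genotype was not computed, so these separations give no support for a genotype effect. The scaling matters here too. With peak-region reads as library size, the median log2 fold change in 0.1% serum was 0.10 over the histone windows and 0.27 over all windows.

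Serum was compared in wild type, to ask whether the signal differs between proliferating and quiescent cells. Of 36 histone windows 0 were called, where 0.25% of all windows were. At an unadjusted p under 0.05 there were 3 by edgeR and 0 by DESeq2. The median log2 fold change was -0.03, against 0.005 for all windows. H4C6 had 18.7 and 18.9 CPM in 10% serum and 12.0 and 12.5 in 0.1% serum, at -0.63 ± 0.23 (edgeR adjusted p = 0.297). H2AC13 had 1.83 and 0.758 CPM in 10% serum and 2.18 and 6.25 in 0.1% serum, at 1.21 ± 0.56 (edgeR adjusted p = 0.456), and its partner H2BC13 was at 1.17 ± 0.60. H3C10 was at 0.88 ± 0.44 (edgeR adjusted p = 0.519). At H2AC13 and H3C10 the highest value was in library B of 0.1% serum, at 14 reads each. As a group with 1 library lets a window pass the filter on 1 library, H2AC13 and H2BC13 passed through the library in which they are high. Without it neither was tested, and H3C10 was at 0.46. These values are a description and give no support for a change. H4C3 and H2AC7 were at -0.64 ± 0.51 and -0.50 ± 0.48. H2AC7 passed the filter only through wild-type ChIP library B in 10% serum and was not tested without it, so its value gives no support for a change either.

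The genotype difference was also compared between the sera. By the test of the difference of differences in the same edgeR fit, 0 of 36 histone windows and 0 of all 140885 windows were called. At an unadjusted p under 0.05 there were 2 histone windows, those of H1-1 and H4C6.

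Input chromatin was compared in the same way, since a difference there would enter any ratio. Between ΔLEO1 and wild type over both sera, 0 of 76 histone windows were called, where 0.0189% of all 206484 windows were, and the median log2 fold change was 0.02. Between 0.1% and 10% serum over both genotypes 0 of 76 were called, where 0% of all windows were, and the median was -0.06. At an unadjusted p under 0.05 there were 1 and 0 histone windows by edgeR and 0 in both by DESeq2.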

How the data were processed

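ChIP and input DNA of BJ-5ta cells were sequenced in 16 libraries, 8 groups of 2 by the sample labels. The authors deposited raw read counts, whole numbers without scaling, over start-site windows and over peak regions. The submitters' processing notes name hg38, dm6, bcl2fastq 2.20.0.422, STAR 2.7.10a and HOMER, and the study's methods name csaw. The study added fly chromatin as a spike-in, but no fly windows were analysed here, so no spike-in scaling was used and a change of the mark shared by all windows could not be seen. The handling of duplicate reads is not given in the sources used here.

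Windows with the same coordinates were used once (the first entry, as repeats could differ in their counts). Counts over all distinct windows were tested with edgeR 4.0.16 in R 4.3.3 (quasi-likelihood F-test, two-sided, TMM, filterByExpr with a minimum count of 10, prior count 2, Benjamini-Hochberg adjustment over all windows tested, calls at 0.05). ChIP over input was fitted on 15 libraries, the ChIP comparisons on 7 and the input comparisons on 8, with 1 coefficient per group. Standard errors were derived from the F statistic. The code was tested on simulated data. Intervals of pooled ratios are exact at 95% and leave out all but counting error, because PCR copies of a molecule cannot be told from separate molecules. Alternatives were no TMM, peak-region totals, DESeq2 1.42.0, no filter, the replicate letter as a block, sums per symbol, each library left out, the library of few reads included, only the libraries compared, the input difference taken off and, chosen after seeing the data, ΔLEO1 in 10% serum left out.

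Each gene is represented by its window of highest mean count over the ChIP and input libraries, which can favour a start high in ChIP. Genes were named where called, where among the 3 highest or 3 lowest of a comparison, and where germline, duplicated or of highest input in their family. Genes of a family that did not pass were named besides, after their values were seen. The value of 1 listed variant gene is not reported here. Members and lists were chosen with earlier results of these data known.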

Additional observations from a re-analysis of the deposited data

Results flagged for a closer look

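At 6 of the named genes with enough ChIP reads, every library moved one way under a contrast in one group and the opposite way in the other. How often other windows meet this rule was not computed. With 1 or 2 libraries on each side, this order alone gives no support for a change. At H1-1, mean ChIP CPM was 11.6 in ΔLEO1 against 8.01 in wild type in 10% serum, and 3.89 against 8.36 in 0.1% serum, so that the log2 differences of 0.54 and -1.10 were 1.64 apart. For 0.1% against 10% serum, the log2 difference in wild type minus that in ΔLEO1 was -1.40 at H2BC14, -0.604 at H2BC17, -0.673 at H3C6, -1.82 at H4C3 and -1.05 at H4C6. At these 5 genes wild type was lower in 0.1% serum and ΔLEO1 was higher. At all 6 genes the ΔLEO1 value in 10% serum is 1 library. By the test of the difference of differences in edgeR, none of the 6 passed, with adjusted p-values of 0.765 at H1-1, 0.854 at H4C6, 0.911 at H2BC14, 0.936 at H4C3, 0.943 at H3C6 and 0.975 at H2BC17.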

How the results depend on the processing

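In ChIP over input, between 42 and 49 members were called lower and between 5 and 11 higher under every alternative but peak-region totals, which gave 76 lower and 0 higher with a median log2 ratio of -2.73. That scaling moved the median of all windows to -1.86. DESeq2 called 5 higher with a median of -1.29, and sums per gene symbol gave 5 higher. Leaving out single libraries gave 46 to 48 lower, 6 to 9 higher and medians of -1.12 to -0.88. Without ΔLEO1 in 10% serum, chosen after seeing the data, 44 were lower and 11 higher. With the replicate block, 47 were lower and 8 higher, and the block changed the number of members called in none of the comparisons. Correlations between groups of the deviations between letters ran from -0.06 to 0.10. At windows with few reads per library, this cannot show whether the letters pair the samples.

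The 8 genes called higher reversed with peak-region totals, to -0.54 (H1-6), -0.55 (H4C7), -0.83 (H2AC1), -0.83 (H2BC1), -0.85 (H4C6), -1.37 (H3C6), -1.43 (H2BC6) and -1.52 (H1-1). H3C6 and H2BC6 reversed in sums per symbol, to -0.28 and -0.43, which include their other start. For the 44 genes called in this comparison, over its alternatives, 977 values kept their direction and side of the threshold, 25 lost the call and 10 reversed.

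In the genotype and serum comparisons 0 members were called under each alternative, while medians moved. In 0.1% serum the genotype median of -0.17 was 0.10 with peak-region totals, -0.11 without a filter, -0.12 with the library of few reads, -0.0935 with only the libraries compared, -0.0945 with the input difference taken off, and -0.231 to -0.0631 with single libraries left out. In 10% serum the median of -0.19 was -0.0073 with peak-region totals, -0.12 without a filter, -0.27 with the replicate block, -0.28 with the library of few reads, -0.13 with the input difference taken off, and -0.287 to -0.0852 with single libraries left out. The serum median of -0.03 was 0.12 with peak-region totals and -0.07 to 0.002 with single libraries left out. H4C9 in 0.1% serum reversed to -0.14 without wild-type ChIP A, and with single libraries left out it ranged up to 1.35. In windows that do not overlap, the summed ratio moved from 0.679 to 0.799 over all members, from 0.578 to 0.461 on chromosome 1 and from 0.689 to 0.815 on chromosome 6. Apart from changes that follow from how a setting is built, the cause was not tested.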
